A study of Mus musculus with 24 samples.

Results

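The response of the liver to atorvastatin was compared between wild-type (WT) mice and mice without the pregnane X receptor (PXR knockout, PXRKO), gene by gene, in 16 RNA-seq libraries. For each gene the interaction is the log2 fold change of atorvastatin over vehicle in PXRKO minus the log2 fold change of atorvastatin over vehicle in WT, so a negative value means a lower response in PXRKO than in WT. The members are the 357 genes, of 19782 in the tables used, for which the deposited tables list raw counts in all 4 groups. All animals were male, given as C57BL/6N for both genotypes in the labels, and fasted for 12 h before sacrifice. How the PXRKO line was made is not stated in the labels. The 4 groups were WT with vehicle (distilled water), WT with atorvastatin (10 mg/kg), PXRKO with vehicle and PXRKO with atorvastatin (10 mg/kg), each given by oral gavage for 4 days, with 4 animals sequenced per group. A further WT group, given the mouse PXR agonist PCN (100 mg/kg), is outside the interaction. It serves for ratios to WT vehicle and, with WT vehicle, for learning the spread used in the test. WT mice were 19 to 20 weeks old and PXRKO mice 20 weeks old. WT and PXRKO animals were treated in different experiments. The effect of the experiment and that of the genotype cannot be told apart in any comparison between genotypes below, every interaction included.

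PXR is a nuclear receptor of hepatocytes and gut that binds drugs and steroids and switches on genes of drug oxidation, conjugation and transport. Atorvastatin, a statin, lowers cholesterol synthesis in the liver, and low cell cholesterol releases the transcription factor SREBP2, which raises the enzymes of sterol synthesis. An interaction asks which of these responses differ when the receptor is absent.

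The 357 members are not a random sample of genes. A gene entered only if the authors' tables listed it between genotypes under both treatments (203 members), or for atorvastatin within PXRKO (173 members). By both routes came 19 members. A gene on the second route also needed WT atorvastatin counts. It therefore also had to be listed for atorvastatin in WT (113 of the 173) or between genotypes with atorvastatin. Listing for atorvastatin in PXRKO does not mean a passed threshold, since the untitled table described under processing states none. Another 1060 genes have counts for the other 3 groups and none for PXRKO vehicle in these tables, and were not analysed here. The listing rests partly on the same libraries, so effects within a genotype and contrasts between genotypes are given as descriptions of the members, and the interaction test applies to genes already selected. Size factors, relative to a library of 12.3 M counts (M for 1e6), ran from 0.54 to 2.02 over the libraries. The 12 hepatocyte markers summed to 896980 to 1033500 normalised counts in the WT vehicle libraries, against 6346 to 9109 for Kupffer cell markers. Of the markers of other cell types only the endothelial gene Lyve1 was a member, so changes in cell makeup were not tested, and fewer cells of a type and less RNA per cell cannot be told apart.

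Nr1i2, which encodes PXR, lies at chr16:38248323-38294824 (GRCm38). It read 1250.1, 1322, 1069 and 1380.0 normalised counts in the WT vehicle libraries and 1394, 1497, 1665 and 1443 in WT with atorvastatin. The PXRKO libraries read 659, 541, 585 and 635 with vehicle and 650.3, 628, 398 and 609 with atorvastatin. All 8 PXRKO libraries lay below all 8 WT libraries, and where in the gene the residual reads fall was not tested. Its interaction was -0.34 (95% interval -0.71 to 0.03, adjusted p = 0.256), which did not pass the threshold. Of the 20 members on chromosome 16, 11 lie within 10 Mb of Nr1i2, itself included. Of these 0 were called with edgeR, DESeq2 or limma-voom, and 0 had an unadjusted p under 0.05 in edgeR. With edgeR 11.5% of all 357 members were called and 81 had such a p, so 0 of 11 is not read as a result.

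Of 357 members 41 were called in the interaction (11.5%, adjusted p under 0.05, edgeR's quasi-likelihood test with Benjamini-Hochberg adjustment over the members). The response was higher in PXRKO for 16 (4.48%) and lower for 25 (7%), and 81 members had an unadjusted p under 0.05. Adjusted over the 12958 genes that could be tested in the widest table of the series, 1 gene, Tspan4, was called. Without the untitled table described under processing, 16 of 213 members were called, all among the 41. Most calls, 36 of 41, had fitted changes of opposite sign in the 2 genotypes, against 109 of all 357 members. The WT effect was itself called for 31 of the 41, the PXRKO effect for 19 and both for 9. Treated and vehicle libraries did not overlap in WT for 27 of the 41, in PXRKO for 4 and in both genotypes for 1. These counts were not taken over all 357 members and are not read as results. With both effects called for only 9 of the 41, a reversed direction was not shown for most of these genes. All 16 positive calls had a lower level with atorvastatin than vehicle in WT and a higher one in PXRKO by fitted change, and 20 of 25 negative calls had the reverse. In the other 5 negative calls both genotypes were higher with atorvastatin, WT more so. Single libraries often lay at the edge of their group in these calls. WT vehicle library 4 was the highest of its group for 12 of the 16 positive calls (75%, against 36.1% of all members), and PXRKO atorvastatin library 2 the lowest for 10 of 16 (62.5%, against 25.5%). Without WT vehicle library 4, 33 members were called, 14 higher and 19 lower, and without PXRKO atorvastatin library 2 there were 42, 18 higher and 24 lower. WT atorvastatin library 4 was the highest of its group for 13 of the 25 negative calls (52%, against 32.2% of all members), and without it 35 were called, 15 higher and 20 lower.

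**Figure D1:**
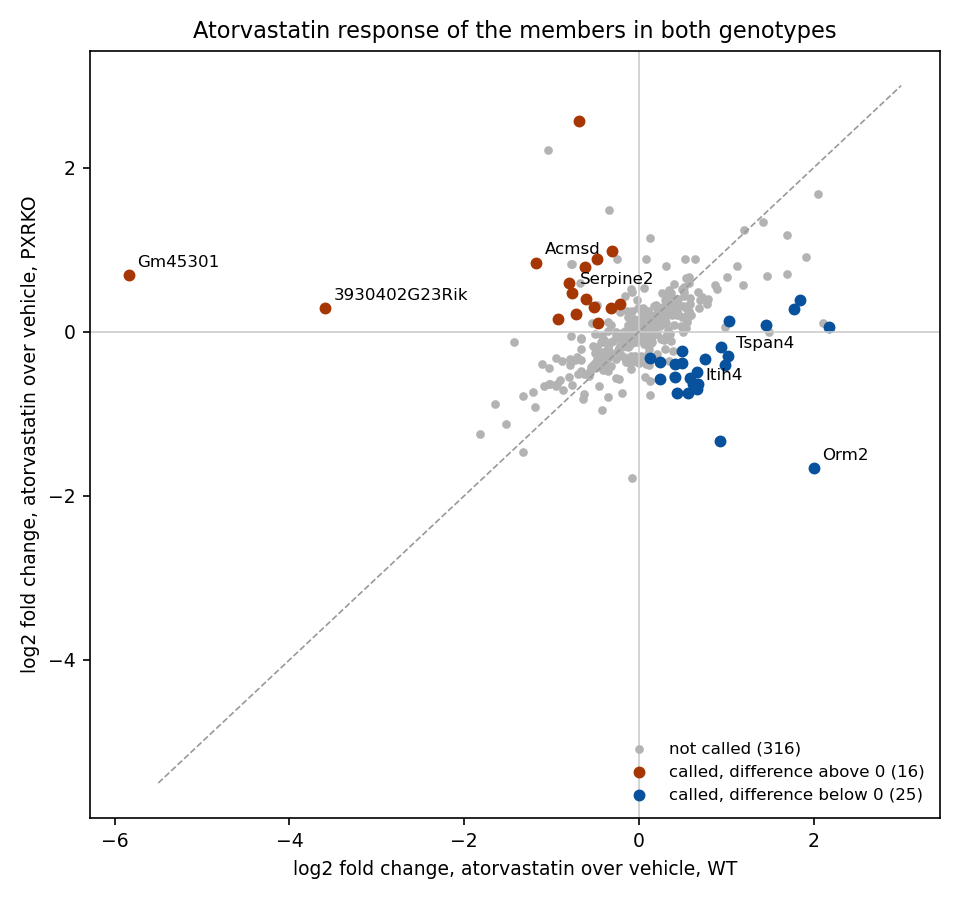
Each point is 1 of 357 genes, with the log2 fold change of atorvastatin over vehicle in WT on the x axis and in PXRKO on the y axis (4 libraries a group), and the dashed line marks equal responses. The 16 called genes above the line have negative WT values and positive PXRKO values, and Orm2 lies farthest below it.

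Within WT 164 members (45.9%) had a called atorvastatin effect and within PXRKO 108 (30.3%). These shares follow partly from the listing and are not read as results. The PXRKO count was 50 higher and 58 lower, and with TMM scaling it was 61 higher and 44 lower. It fell to 0 without PXRKO atorvastatin library 3, to 15 without library 4 of that group, and to 35 and 64 without PXRKO vehicle libraries 4 and 3. Both effects were called for 70 members, and 61 of these had the same sign in both genotypes, 32 higher and 29 lower. The called interactions were unevenly spread over the ways of being listed. Against 11.5% of all members, 13 of 184 members listed only between genotypes were called (7.07%), 23 of 154 listed for atorvastatin in PXRKO but not in both genotype tables (14.9%) and 5 of the 19 that came by both routes (26.3%). Of 168 members also listed for atorvastatin in WT 29 were called (17.3%), and of 189 not so listed 12 (6.35%). Of 73 listed for atorvastatin in both genotypes and in no genotype table, 1 was called (1.37%). Genes so listed had no listed genotype difference under either treatment. Their share, like the others by way of listing, follows partly from the listing and is not read as a result.

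The gene with the lowest p was Tspan4, a membrane protein of the tetraspanin family (chr7:141475240-141493427). It read 405, 395, 343 and 319 in WT vehicle and 712, 629, 677 and 948 in WT with atorvastatin. The PXRKO libraries read 388, 436, 488 and 368 with vehicle and 309, 374, 351 and 335 with atorvastatin. The WT groups did not overlap and the highest treated PXRKO library only just exceeded the lowest vehicle one. The interaction was -1.31 (95% interval -1.68 to -0.94, adjusted p = 0.000245), and leaving out each library in turn gave -1.39 to -1.18.

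Acute phase proteins, which hepatocytes secrete under cytokines, formed the first group of members. All of them but Crp had an interaction below 0. Of 29 listed acute phase genes 7 were members, and all 7 were listed for atorvastatin in PXRKO, so their change there was part of the selection. Each also had to be listed for atorvastatin in WT or between genotypes with atorvastatin, which bears on the WT effect and the interaction. The interaction was called lower for 4 (Orm2, Itih4, Orm1 and Serpina3n), higher for 0, and 3 did not pass, where 7% of all members were called lower. DESeq2 called 4 of the 7 and limma-voom 2. Their median interaction was -0.957 on the log2 scale, against -0.00339 for all 357 members. The median effect was 0.41 in WT and -0.547 in PXRKO.

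Orm2 and Orm1 encode orosomucoids, plasma carriers of drugs and lipids, and are near-identical neighbours on chromosome 4 (chr4:63362449-63365878 and chr4:63344560-63348163), so reads may be divided between them. Orm2 had the largest interaction among annotated genes, and its promoter window is shown for that reason, with that of Itih4 as the most abundant member of the list. Windows are RefSeq, build GRCm38.p6, 250 bases before to 50 after the gene's start, read 5′ to 3′ on the gene's strand, which is plus for both. Capitals in Orm2 mark TTGCGCAA, the palindrome that C/EBP factors bind. Capitals in Itih4 mark the 6 fixed letters of TTCNNNGAA, the palindrome that STAT factors bind.
Orm2, chr4:63362199-63362498: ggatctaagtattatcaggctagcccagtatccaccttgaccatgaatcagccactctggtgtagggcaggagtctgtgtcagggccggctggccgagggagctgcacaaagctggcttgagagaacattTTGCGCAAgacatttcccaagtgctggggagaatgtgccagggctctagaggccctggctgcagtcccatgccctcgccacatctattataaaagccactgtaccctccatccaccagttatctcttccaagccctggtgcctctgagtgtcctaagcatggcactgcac
Itih4, chr14:30886226-30886525: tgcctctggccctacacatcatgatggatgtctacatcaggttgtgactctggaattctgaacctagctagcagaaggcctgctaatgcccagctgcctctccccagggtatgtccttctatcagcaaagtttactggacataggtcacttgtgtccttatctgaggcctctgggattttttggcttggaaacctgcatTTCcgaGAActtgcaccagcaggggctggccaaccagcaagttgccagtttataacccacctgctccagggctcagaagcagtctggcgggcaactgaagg
Both strands were searched in 32851 windows. TTGCGCAA stood in 0.183% of all windows, in 2 of the 258 members with a window and in 1 of the 31 called ones, Orm2. TTCNNNGAA stood in 8.3% of all windows and 6.59% of the members', so a match to it is common. A match describes letters and is not a site shown to be bound.

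Orm2 read 31.7, 21.3, 40.5 and 28.4 in WT vehicle and 78.1, 65.3, 193 and 131 in WT with atorvastatin. With PXRKO it read 169, 52.5, 23.0 and 66.1 in vehicle and 21.1, 23.7, 37.2 and 13.2 with atorvastatin. The WT groups stood apart, while the PXRKO groups overlapped, vehicle library 3 being low. The interaction was -3.66 (95% interval -5.14 to -2.18, adjusted p = 0.00376).

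Orm1 read 2071, 2269, 1931 and 2502 in WT vehicle and 1938, 2707, 3764 and 3473 with atorvastatin. In PXRKO it read 5197, 2640.5, 2237 and 2679.8 with vehicle and 1609.5, 1818, 2363 and 1829 with atorvastatin. In both genotypes the groups overlapped. The interaction was -1.18 (95% interval -1.85 to -0.50, adjusted p = 0.0236), and without WT atorvastatin library 3 it was -1.04 (adjusted p = 0.0557), no longer called. The call was also lost with limma-voom (adjusted p = 0.0633).

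Itih4, a plasma inhibitor-chain protein that stabilises the extracellular matrix, read 22417, 20211, 24876 and 16783 in WT vehicle and 26453, 26230.4, 36732 and 44382 with atorvastatin. It read 46404, 29121, 16666 and 28042 in PXRKO vehicle and 17997, 18139, 18922 and 19172 in PXRKO with atorvastatin. The WT groups did not overlap, and the treated PXRKO libraries lay close together, with PXRKO vehicle library 3 below them. The interaction was -1.36 (95% interval -2.03 to -0.69, adjusted p = 0.00983). Serpina3n, a serine protease inhibitor, read 4220.3 to 5447 in WT vehicle and 4809.8 to 7557 with atorvastatin, with 4495 to 9418 in PXRKO vehicle and 3895 to 5671 in PXRKO with atorvastatin. Its interaction was -0.96 (95% interval -1.54 to -0.38, adjusted p = 0.0304), and the call was lost on leaving out 1 of 8 libraries in turn (WT vehicle libraries 1 or 3, WT atorvastatin libraries 3 or 4, PXRKO vehicle library 1, or PXRKO atorvastatin libraries 1, 2 or 4), at -1.10 to -0.72 over all 16. It was also lost with the members' own dispersion trend (adjusted p = 0.0561) and with limma-voom (adjusted p = 0.0676).

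The 3 other acute phase members did not pass. Steap4, a metalloreductase, gave -0.70 (95% interval -1.21 to -0.19, adjusted p = 0.0714) and was called without WT vehicle library 2 (-0.80) or WT atorvastatin library 3 (-0.81). Saa4, a constitutive serum amyloid, gave -0.48 (95% interval -0.98 to 0.02, adjusted p = 0.238). Crp, C-reactive protein, gave 0.00 (95% interval -0.28 to 0.29, adjusted p = 0.983), with lower fitted levels in both genotypes. C4b, a complement component outside that list, was also called and was named after its values were seen. It gave -0.88 (95% interval -1.35 to -0.41, adjusted p = 0.0172).

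PXRKO vehicle library 1 was the highest of its group for Orm2, Orm1, Itih4 and Serpina3n. It was the highest for 11 of the 25 negative calls (44%) and for 30.5% of all members. Without it the interaction was -2.92 for Orm2, -1.07 for Itih4 and -0.84 for Orm1, still called, while Serpina3n gave -0.72 (adjusted p = 0.0642). Over all members 33 were then called, 31 of them among the 41.

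**Figure D2:**
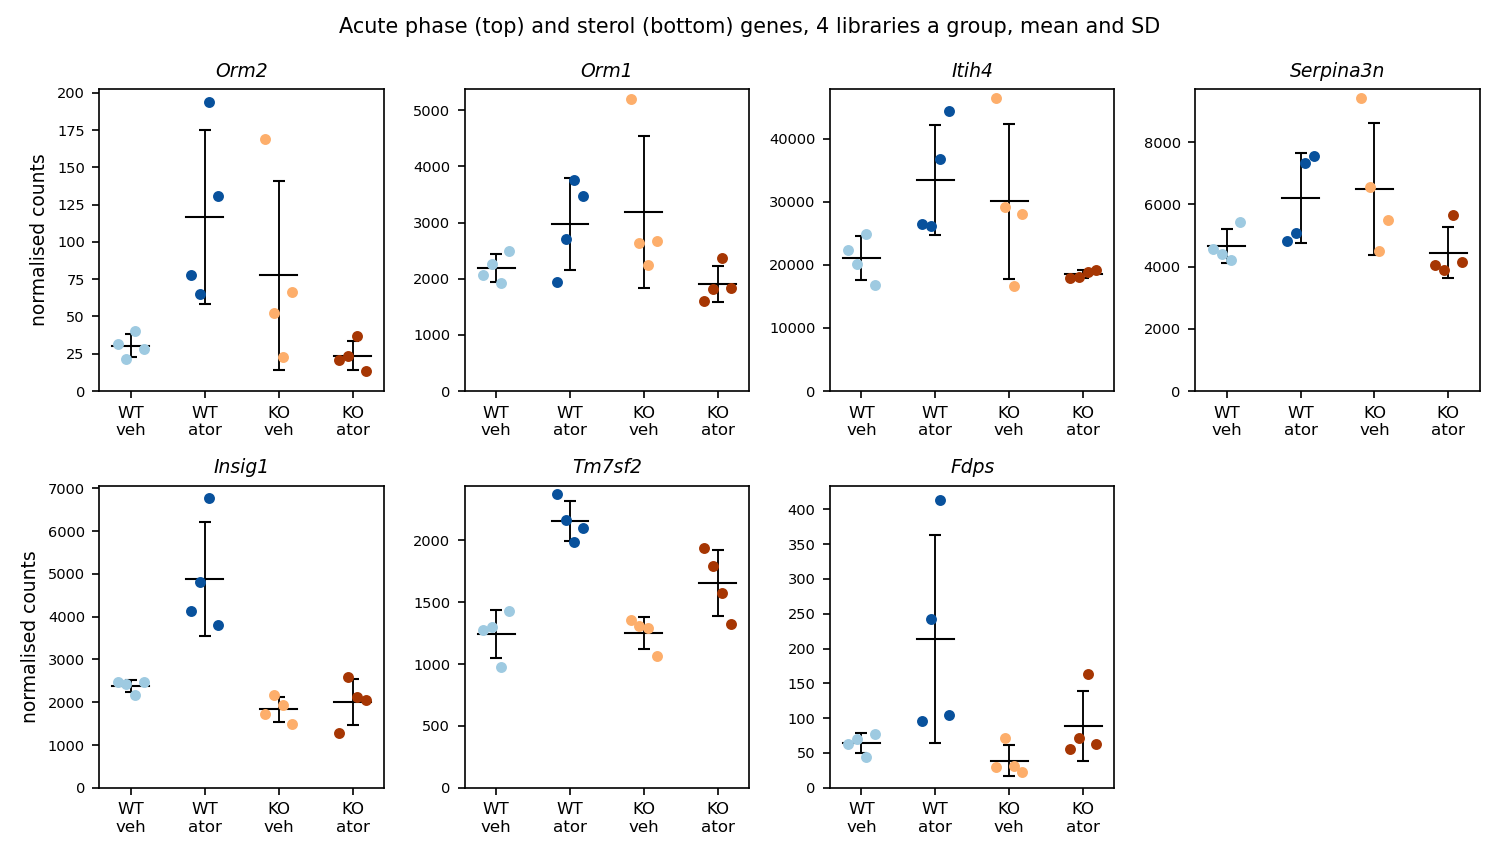
Normalised counts of 4 acute phase genes (top) and 3 sterol genes (bottom) by library (points), with the mean (line) and SD (bar) of the 4 libraries of each group, WT and PXRKO (KO) with vehicle (veh) or atorvastatin (ator). PXRKO vehicle library 1 is the highest point of its group in all 4 top panels, and WT atorvastatin library 3 in the Insig1 panel.

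Insig1, Tm7sf2 and Fdps belong to the sterol synthesis list of 30. Their fitted change with atorvastatin was above 0 in WT and smaller in PXRKO for all 3. The interaction was called lower for Insig1, and Tm7sf2 and Fdps did not pass. Other genes of the list were not analysed or are not reported here, so no count or median over the list is given.

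Insig1, the endoplasmic reticulum protein that holds SREBP in check, read 2464, 2427, 2171 and 2481 in WT vehicle and 4123, 4813, 6788 and 3796 with atorvastatin. In PXRKO it read 1714, 2178, 1941 and 1495 with vehicle and 1286, 2586, 2128 and 2051 with atorvastatin. The WT groups stood apart and the PXRKO groups overlapped. The interaction was -0.90 (95% interval -1.45 to -0.35, adjusted p = 0.0314), a call lost with the members' own dispersion trend (adjusted p = 0.0571), with limma-voom (adjusted p = 0.0616) and with adjustment over the genes of the 0.05 tables alone (adjusted p = 0.0551). It was also lost without WT vehicle library 3, WT atorvastatin library 3, PXRKO vehicle libraries 2 or 3, or PXRKO atorvastatin library 4 (-1.04 to -0.70 over all 16). Without WT atorvastatin library 3, the highest of its group, the interaction was -0.70 (adjusted p = 0.0709).

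Tm7sf2, a sterol reductase of the later pathway, read 1278, 1299, 973 and 1431 in WT vehicle, 2371, 2167, 1989.8 and 2096 in WT with atorvastatin, 1356, 1305, 1288 and 1066 in PXRKO vehicle and 1935, 1792, 1572 and 1321 in PXRKO with atorvastatin. It was higher with atorvastatin in both genotypes by group mean, and its interaction of -0.39 (95% interval -0.75 to -0.03, adjusted p = 0.163) did not pass. Fdps, farnesyl diphosphate synthase, was at low counts (44.2 to 77.7 in WT vehicle, 95.5 to 414 with atorvastatin), and its interval of -1.90 to 0.87 was wide.

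Acmsd, Tdo2 and Oat, enzymes of amino acid breakdown that came in by the naming rule and form no list here, were among the 16 positive calls. Acmsd, which diverts tryptophan carbon away from NAD synthesis (chr1:127729413-127767978), had the largest positive interaction among annotated genes with a mean of at least 50 counts. It read 127, 183, 59.0 and 374 in WT vehicle and 82.3, 81.6, 113 and 64.8 with atorvastatin, and 153, 184, 174 and 132 in PXRKO vehicle and 247, 149.9, 346 and 406 with atorvastatin. The groups overlapped in both genotypes, WT vehicle being widely spread. The interaction was 2.02 (95% interval 0.92 to 3.12, adjusted p = 0.0175), and the call was lost with limma-voom (adjusted p = 0.0616).

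Tdo2, the enzyme of the first step of tryptophan breakdown, read 21839, 21804, 20103 and 28404 in WT vehicle, 20138, 18422, 22134 and 18344 in WT with atorvastatin, 22102, 21546, 20314 and 24925 in PXRKO vehicle and 25653, 24715, 26574 and 35429.8 in PXRKO with atorvastatin. The interaction was 0.56 (95% interval 0.19 to 0.93, adjusted p = 0.0454), a call lost without WT vehicle libraries 1 or 4, WT atorvastatin libraries 1, 2 or 4, PXRKO vehicle libraries 1, 2 or 3, or PXRKO atorvastatin libraries 3 or 4 (0.43 to 0.62 over all 16). It was also lost with the members' own dispersion trend (adjusted p = 0.0707) and with limma-voom (adjusted p = 0.071). Asic5, an ion channel gene of the acid-sensing family that starts 6.1 kb from Tdo2 on chromosome 3, gave 1.40 (95% interval 0.73 to 2.07, adjusted p = 0.00971), with 135 ± 41.5 in WT vehicle, 89.3 ± 9.24 in WT with atorvastatin, 141 ± 22.3 in PXRKO vehicle and 241 ± 85.3 in PXRKO with atorvastatin (SD, n = 4). Oat, ornithine aminotransferase of arginine and proline metabolism, read 12785, 13268, 12987 and 16432 in WT vehicle, 9559.7, 11747, 10513 and 12708 in WT with atorvastatin, 13246, 14471, 15739 and 16592 in PXRKO vehicle and 20079.8, 19754, 16051 and 17513 in PXRKO with atorvastatin. Its interaction was 0.61 (95% interval 0.28 to 0.93, adjusted p = 0.0172), and all WT treated libraries lay below all WT vehicle ones.

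Nav2 (neuron navigator), Tln2 (a talin, linking integrins to actin) and Fyb2 (an adaptor) also had higher responses in PXRKO, named by the same rule. Nav2 read 3392, 3018, 3118 and 3233 in WT vehicle and 1842, 2416, 1866 and 1598 with atorvastatin, with 3018, 2518, 2519 and 2579 with vehicle and 3044, 3605, 3102 and 2606 with atorvastatin in PXRKO. Its WT groups did not overlap, the interaction being 0.94 (95% interval 0.61 to 1.28, adjusted p = 0.00258). Tln2 read 639.7 ± 54.4 in WT vehicle, 447 ± 41.9 in WT with atorvastatin, 476 ± 42.9 in PXRKO vehicle and 584 ± 92.1 in PXRKO with atorvastatin (SD, n = 4) and gave 0.81 (95% interval 0.50 to 1.13, adjusted p = 0.00314). Fyb2 read 116 ± 26.3 in WT vehicle, 77.2 ± 8.27 in WT with atorvastatin, 147 ± 21.4 in PXRKO vehicle and 194 ± 28.4 in PXRKO with atorvastatin (SD, n = 4) and gave 1.00 (95% interval 0.54 to 1.47, adjusted p = 0.0083).

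Psen2, a subunit of the gamma-secretase protease, read 1825, 1665, 1697 and 1856 in WT vehicle and 1206, 1185, 1252 and 1448 with atorvastatin. In PXRKO it read 1542, 1583, 1388 and 1382 with vehicle and 1718, 1425, 1570.3 and 1617 with atorvastatin, and the interaction was 0.57 (95% interval 0.33 to 0.81, adjusted p = 0.00417). Serpine2, a secreted protease inhibitor, read 356 ± 69.0 in WT vehicle, 209 ± 85.4 in WT with atorvastatin, 239.6 ± 61.5 in PXRKO vehicle and 336 ± 34.7 in PXRKO with atorvastatin (SD, n = 4) and gave 1.25 (95% interval 0.58 to 1.92, adjusted p = 0.0172). Arsg, a lysosomal sulfatase, read 312 ± 91.2 in WT vehicle, 165 ± 37.6 in WT with atorvastatin, 509 ± 52.7 in PXRKO vehicle and 564 ± 141 in PXRKO with atorvastatin (SD, n = 4) and gave 1.08 (95% interval 0.49 to 1.66, adjusted p = 0.0172). Gjc3, a gap junction protein at 70.6 ± 11.3 in WT vehicle (SD, n = 4), gave 1.39 (95% interval 0.51 to 2.27, adjusted p = 0.0372). Its call was lost without WT vehicle libraries 1 or 4, WT atorvastatin libraries 1, 2 or 4, PXRKO vehicle libraries 1, 3 or 4, or PXRKO atorvastatin libraries 3 or 4 (1.18 to 1.85 over all 16), and with the members' own dispersion trend (adjusted p = 0.0715).

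Fosl2 and Gas6 had lower responses in PXRKO. Fosl2, a subunit of the AP-1 transcription factor, read 227, 205, 258 and 195 in WT vehicle, 393, 325, 281 and 484 in WT with atorvastatin, 308, 325, 269 and 341 in PXRKO vehicle and 222, 219, 262 and 276 in PXRKO with atorvastatin. The WT groups did not overlap and the interaction was -1.10 (95% interval -1.53 to -0.67, adjusted p = 0.00314). Gas6, the ligand of the TAM receptor kinases, read 246, 308, 341 and 315 in WT vehicle, 433, 404, 414 and 667 in WT with atorvastatin, 666, 418, 325 and 430.4 in PXRKO vehicle and 301, 311, 311 and 383 in PXRKO with atorvastatin, with 1 high library in each of the WT treated and PXRKO vehicle groups. Its interaction was -1.16 (95% interval -1.73 to -0.59, adjusted p = 0.00983).

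Tnxb, tenascin X of the extracellular matrix, was 267 ± 36.4 in WT vehicle and 720.2 ± 213 with atorvastatin, against 469 ± 147 with vehicle and 499.6 ± 25.2 with atorvastatin in PXRKO (SD, n = 4). The interaction was -1.37 (95% interval -1.96 to -0.77, adjusted p = 0.0059), and only the WT groups stood apart. C4b starts 8.6 kb from its end. Slc25a25, a mitochondrial ATP-Mg carrier, read 1777 ± 364 in WT vehicle, 2734 ± 484 in WT with atorvastatin, 2471 ± 367 in PXRKO vehicle and 1589 ± 474 in PXRKO with atorvastatin (SD, n = 4) and gave -1.25 (95% interval -1.82 to -0.68, adjusted p = 0.00767). Isyna1, which makes inositol phosphate, gave -1.30 (95% interval -2.09 to -0.51, adjusted p = 0.0304) at 47.0 ± 7.19 counts in WT vehicle (SD, n = 4). Its call was lost without WT vehicle libraries 2 or 4, WT atorvastatin library 3, PXRKO vehicle library 1, or PXRKO atorvastatin library 2 (-1.471 to -1.003 over all 16). It was also lost with the members' own dispersion trend (adjusted p = 0.0567) and with limma-voom (adjusted p = 0.0676).

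Slc10a2, the sodium-dependent bile acid transporter, read 204, 204, 188 and 182 in WT vehicle, 287, 304, 254 and 320.1 in WT with atorvastatin, 192, 107, 122 and 156 in PXRKO vehicle and 103, 134, 66.4 and 92.1 in PXRKO with atorvastatin. The WT groups did not overlap and the interaction was -1.14 (95% interval -1.68 to -0.61, adjusted p = 0.00864). It was 1 of 3 members of the bile acid list of 24, and the other 2 did not pass. Nr0b2, the receptor SHP that represses bile acid synthesis, gave 0.29 (95% interval -0.53 to 1.11, adjusted p = 0.76), with lower levels in both treated groups. Slco1b2, a hepatic anion uptake transporter, gave -0.02 (95% interval -0.34 to 0.30, adjusted p = 0.966).

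Per1, a clock repressor, gave -0.60 (95% interval -0.96 to -0.25, adjusted p = 0.0268) from 1017 ± 135 in WT vehicle, 1201 ± 165 in WT with atorvastatin, 843 ± 126 in PXRKO vehicle and 654 ± 53.6 in PXRKO with atorvastatin (SD, n = 4). The call was lost without WT vehicle library 1, WT atorvastatin libraries 2 or 3, PXRKO vehicle library 3, or PXRKO atorvastatin library 3 (-0.68 to -0.51 over all 16). It was also lost with the members' own dispersion trend (adjusted p = 0.0529) and with limma-voom (adjusted p = 0.0633). Bhlhe41, the other clock member, gave -0.36 (95% interval -1.45 to 0.72, adjusted p = 0.767).

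**Figure D3:**
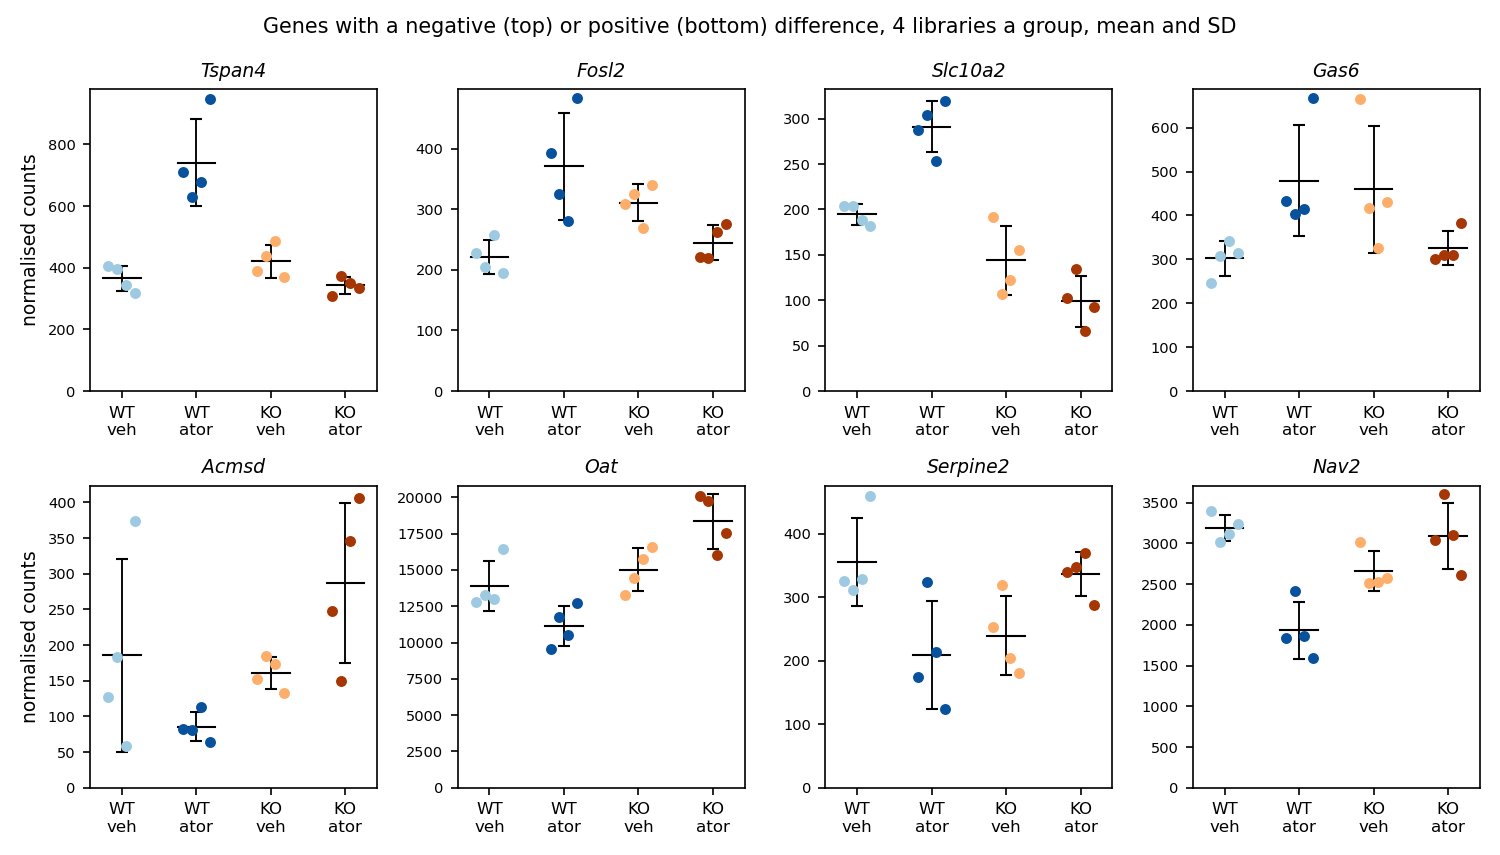
Normalised counts by library for 4 genes with a negative interaction (top) and 4 with a positive one (bottom), drawn as points with the group mean and SD over 4 libraries, KO standing for PXRKO. In the Tspan4, Fosl2, Slc10a2, Gas6, Oat and Nav2 panels the WT groups do not overlap, and in the Acmsd and Serpine2 panels they do.

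**Figure D4:**
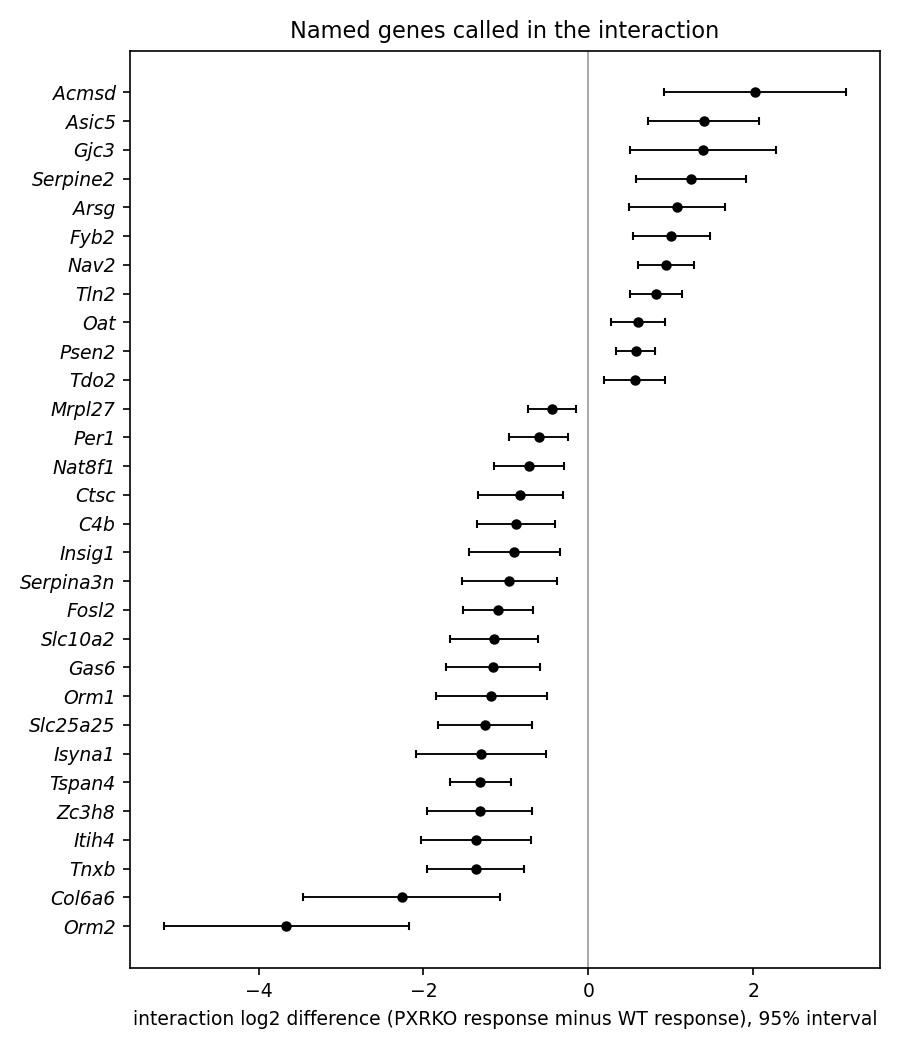
Interaction log2 difference (x axis, PXRKO response minus WT response) of 30 named called genes that are not predicted gene models, with 95% intervals. All 30 intervals exclude 0, and that of Orm2 is the widest.

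The largest interaction of all was that of a predicted gene model, Gm45301 (chr8:35407471-35409506), named after its values were seen. It read 48.1, 68.3, 14.7 and 32.1 in WT vehicle and 0, 0.859, 1.80 and 0 in WT with atorvastatin, against 9.28, 11.0, 15.9 and 2.59 with vehicle and 43.5, 7.89, 14.2 and 1.20 with atorvastatin in PXRKO. WT treated libraries were at or near 0, so the interaction of 6.52 (95% interval 4.00 to 9.05, adjusted p = 0.00314) depends on few reads. A second predicted model on chromosome 8, 3930402G23Rik, gave 3.88 (95% interval 1.58 to 6.18, adjusted p = 0.0268) with 0 to 2.09 counts in WT with atorvastatin, and the call was lost without WT atorvastatin libraries 3 or 4 (3.04 to 5.06 over all 16). Of the 44 predicted models among the members 8 were called (18.2%, against 11.5% of all members).

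Member genes of the endoplasmic reticulum stress response were lower with atorvastatin in both genotypes by fitted change. These chaperones and enzymes fold secreted proteins, and the unfolded protein response raises them through ATF6 and XBP1. Of 27 listed genes 11 were members, all 11 listed for atorvastatin in PXRKO, so a change there was part of the selection. Each also had to be listed for atorvastatin in WT or between genotypes with atorvastatin. The directions in both genotypes and the count of calls below are therefore not free of the selection. In the interaction 0 of the 11 were called with edgeR, DESeq2 or limma-voom, and 0 had an unadjusted p under 0.05 in edgeR. Over all 357 members edgeR called 11.5%, and 81 had such a p, so the count of 0 among 11 is not read as a result. The median interaction of the 11 was 0.0369, in a range of -0.356 to 0.545. The fitted change was below 0 for all 11 in both genotypes, with a median of -0.418 in WT and -0.449 in PXRKO, against 0.0277 and -0.0219 for all members. A p that misses the threshold does not show equal responses, and the 95% intervals of the 11 reached from -0.965 to 1.56.

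Hspa5, Calr, Pdia6 and Hyou1 were chosen after their values were seen. The windows of Hspa5 and Pdia6 are shown because they hold the motif of this response. Capitals mark the fixed letters of the ER stress response element, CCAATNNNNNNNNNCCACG, bound by NF-Y with ATF6 or XBP1. Both genes lie on the plus strand.
Hspa5, chr2:34771840-34772139: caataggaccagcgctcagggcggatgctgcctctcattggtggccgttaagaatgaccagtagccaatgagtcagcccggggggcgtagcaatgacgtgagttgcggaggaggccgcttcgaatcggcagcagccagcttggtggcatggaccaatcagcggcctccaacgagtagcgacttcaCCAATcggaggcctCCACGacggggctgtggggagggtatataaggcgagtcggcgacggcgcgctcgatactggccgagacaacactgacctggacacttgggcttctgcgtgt
Pdia6, chr12:17266339-17266638: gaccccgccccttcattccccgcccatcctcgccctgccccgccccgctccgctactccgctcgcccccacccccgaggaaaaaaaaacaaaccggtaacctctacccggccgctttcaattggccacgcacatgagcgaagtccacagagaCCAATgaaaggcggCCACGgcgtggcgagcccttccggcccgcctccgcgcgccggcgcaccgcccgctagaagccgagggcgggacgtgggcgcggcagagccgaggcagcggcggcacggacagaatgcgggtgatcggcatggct
The motif stood in 39 of 32851 windows (0.119%), both strands searched, and in 8 of the 258 members with a window (3.1%). It stood in 4 of the 9 stress members with a window (Hspa5, Pdia6, Calr and Creld2), and in 0 of the 31 called members with a window. No match says only that these letters are not in the window.

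Hspa5, the chaperone BiP, read 8094, 7811, 11572 and 8241 in WT vehicle and 5930.1, 6290.3, 5049.5 and 7472 with atorvastatin. In PXRKO it read 7862, 8877, 9879 and 11852 with vehicle and 6866, 6839, 6573 and 8784 with atorvastatin. The WT groups did not overlap, WT vehicle library 3 being high, and the PXRKO groups overlapped. The interaction was 0.12 (95% interval -0.32 to 0.57, adjusted p = 0.803), and without WT vehicle library 3 it was -0.02.

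Pdia6, a disulfide isomerase, read 1698, 1594, 2376 and 1422 in WT vehicle, 1288, 1374, 1194 and 1430.1 in WT with atorvastatin, 1932, 1619, 1643 and 1854 in PXRKO vehicle and 1209, 1303, 1229.5 and 1460.0 in PXRKO with atorvastatin. Only in PXRKO did its groups stand apart. The interaction was -0.02 (95% interval -0.38 to 0.35, adjusted p = 0.969). Calreticulin (Calr) gave -0.09 (95% interval -0.38 to 0.20, adjusted p = 0.773) and Hyou1, a large ER chaperone, gave 0.11 (95% interval -0.33 to 0.56, adjusted p = 0.821).

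Creld2, a secreted ER stress protein, had the widest interval, and gave 0.55 (95% interval -0.47 to 1.56, adjusted p = 0.608). It read 223, 349, 881 and 319.6 in WT vehicle, where library 3 stood high, and without that library the interaction was 0.02. Sdf2l1, an ER chaperone cofactor, gave 0.27 (95% interval -0.51 to 1.05, adjusted p = 0.76). Dnajb9, a BiP cochaperone, gave -0.22 (95% interval -0.76 to 0.31, adjusted p = 0.725), and Cebpb, a transcription factor of the liver, gave -0.36 (95% interval -0.96 to 0.25, adjusted p = 0.572).

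**Figure D5:**
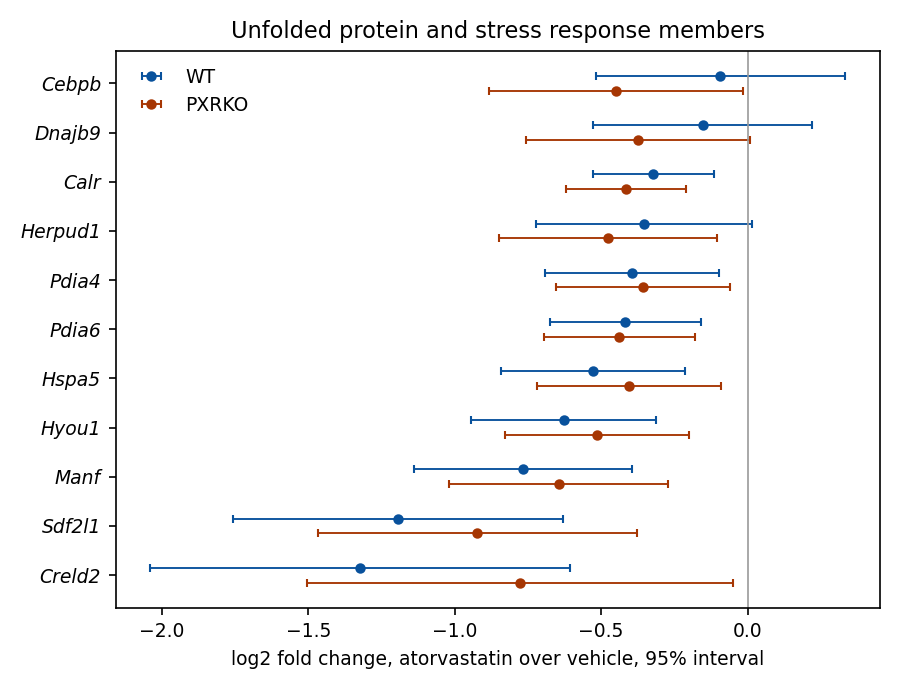
Log2 fold change of atorvastatin over vehicle (x axis) with 95% intervals for 11 members of the unfolded protein and stress response list in WT and PXRKO. All 22 points lie below 0, and the intervals of both genotypes overlap for every gene.

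Drug metabolism, the process PXR is best known for, was represented by 5 members of a list of 47. Of these 0 were called in the interaction with edgeR, DESeq2 or limma-voom, and 0 had an unadjusted p under 0.05 in edgeR. Over all 357 members edgeR called 11.5%, and 81 had such a p, so 0 of 5 is not read as a result. Only 1 of the 5 was listed for atorvastatin in PXRKO, so the others entered by listing between genotypes under both treatments. Among members listed only between genotypes 7.07% were called. The median interaction of the 5 was -0.277, in a range of -0.624 to -0.163. Cyp2a5, an oxidase of nicotine and coumarin, read 2696, 5883, 3813 and 8119 in WT vehicle and 10405, 10534, 12964 and 13032 with atorvastatin. In PXRKO it read 5699.9, 4559, 6548 and 6353 with vehicle and 6643, 10859, 9024 and 7799 with atorvastatin. The WT groups stood apart and treated PXRKO libraries were all above the vehicle ones, and the interaction was -0.62 (95% interval -1.34 to 0.09, adjusted p = 0.287).

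The carboxylesterase Ces2a gave -0.28 (95% interval -0.57 to 0.02, adjusted p = 0.25). It read 3112 ± 353 in WT vehicle, 3424 ± 323 in WT with atorvastatin, 5462 ± 388 in PXRKO vehicle and 4957 ± 569 in PXRKO with atorvastatin (SD, n = 4). Cyp2c50 and Cyp2c55, steroid and drug oxidases of a family whose close copies may share reads, gave -0.27 (95% interval -0.68 to 0.14, adjusted p = 0.49) and -0.38 (95% interval -1.41 to 0.65, adjusted p = 0.76). With the mouse PXR agonist PCN (100 mg/kg) WT livers held 2.61 times the vehicle mean of Ces2a (8113 ± 3281 normalised counts, SD, n = 4), 1.91 times that of Cyp2a5, 2.95 times that of Cyp2c55, 0.866 times that of Cyp2c50 and 0.87 times that of Cyp2c29, a group that shares its vehicle libraries with WT atorvastatin. Nr1i3, the sister receptor CAR, gave -0.49 (95% interval -0.99 to 0.01, adjusted p = 0.225), with 7129 ± 771 in WT vehicle, 10344 ± 1149 in WT with atorvastatin, 3997 ± 568 in PXRKO vehicle and 4125 ± 1219.9 in PXRKO with atorvastatin (SD, n = 4).

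For all 30 annotated called genes named here, the ratio of the PCN mean to the WT vehicle mean (4 libraries each) is given as a description with no test, since the vehicle libraries are also those of the interaction. Among the positive calls the ratio was 0.494 for Acmsd, 0.612 for Asic5, 0.647 for Gjc3, 0.672 for Serpine2, 0.763 for Arsg, 0.845 for Fyb2, 0.743 for Nav2, 0.729 for Tln2, 0.954 for Oat, 0.687 for Psen2 and 0.841 for Tdo2. Among the negative calls it was 1.41 for Orm2, 1.9 for Col6a6, 2.5 for Tnxb, 1.14 for Itih4, 1.21 for Zc3h8, 1.73 for Tspan4, 0.906 for Isyna1, 1.9 for Slc25a25, 1.14 for Orm1 and 1.22 for Gas6. For the other negative calls it was 1.15 for Slc10a2, 1.15 for Fosl2, 1.02 for Serpina3n, 1.18 for Insig1, 1.12 for C4b, 1.05 for Ctsc, 1.12 for Nat8f1, 0.957 for Per1 and 1.08 for Mrpl27. PCN was given to WT animals only, so no interaction can be formed for it here.

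Of 25 listed glucocorticoid and fasting genes 3 were members, all 3 listed for atorvastatin in PXRKO, so a change there was part of the selection. All 3 had lower fitted levels with atorvastatin in both genotypes. In the interaction 0 of the 3 were called with edgeR, DESeq2 or limma-voom, while 2 had an unadjusted p under 0.05 in edgeR. Beside 11.5% of all members called by edgeR, 0 of 3 is not read as a result. Ppp1r3c, a glycogen-targeting phosphatase subunit, came nearest with 0.72 (95% interval 0.21 to 1.23, adjusted p = 0.0592), and was called with TMM (0.78) and without WT atorvastatin library 1 (0.81) or 4 (0.82) or PXRKO atorvastatin library 1 (0.81) or 3 (0.81). Tsc22d3, a glucocorticoid-induced leucine zipper, gave 0.59 (95% interval 0.06 to 1.12, adjusted p = 0.156). Gadd45b, a stress-response gene at low counts, gave 0.57 (95% interval -0.78 to 1.92, adjusted p = 0.712).

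In the lipid lists 0 of 5 members were called with edgeR, DESeq2 or limma-voom, and 1, Cyp4a31, had an unadjusted p under 0.05 in edgeR. As edgeR called 11.5% of all members, 0 of 5 is not read as a result. Elovl5 and Elovl2, elongases of polyunsaturated fatty acids, gave 0.30 (95% interval -0.13 to 0.74) and 0.09 (-0.36 to 0.54). Cpt1a, the entry enzyme of mitochondrial fatty acid oxidation, gave -0.06 (-0.36 to 0.24). Cyp4a31, a fatty acid hydroxylase, gave 0.73 (0.08 to 1.38) and was called without WT vehicle library 2 (0.94). Angptl4, an inhibitor of lipoprotein lipase, gave 0.18 (-0.28 to 0.64) and was lower with atorvastatin in both genotypes by group mean, 2898 ± 164 in WT vehicle, 1833 ± 108 in WT with atorvastatin, 2338 ± 261 in PXRKO vehicle and 1677 ± 561 in PXRKO with atorvastatin (SD, n = 4).

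The sex-biased and antioxidant lists held 7 members, with 0 calls by edgeR, DESeq2 or limma-voom and 0 unadjusted p under 0.05 in edgeR. Against 11.5% of all 357 members called and 81 with such a p, 0 of 7 is not read as a result. The male-biased members gave 0.39 for Mup1, 0.11 for Mup21, -0.18 for Hsd3b2 and 0.06 for Cyp4f14, and the urinary protein genes Mup1 and Mup21 have near-identical copies that may share reads. Mup1 was lower with atorvastatin in both genotypes, reading 866 to 1484 in WT vehicle, 315 to 610.5 in WT with atorvastatin, 1351 to 2001 in PXRKO vehicle and 387 to 1168 in PXRKO with atorvastatin. The female-biased transporter gene Slc22a27 was at low counts and gave -0.93 (-2.41 to 0.56). Gpx1, glutathione peroxidase, gave -0.29 (-0.58 to 0.00) and Gsta3, a glutathione transferase, gave -0.38 (-0.89 to 0.13).

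Of 12 hepatocyte markers 2 were members and 0 were called with edgeR, DESeq2 or limma-voom, with 0 unadjusted p under 0.05 in edgeR. Since edgeR called 11.5% of all members, 0 of 2 is not read as a result. Apoc3, an apolipoprotein of triglyceride-rich particles, gave 0.01 (95% interval -0.24 to 0.26, adjusted p = 0.982), and read 9200.0 to 11275 in WT vehicle and 7525 to 8916 in treated PXRKO. Ttr, the thyroxine carrier transthyretin, gave 0.11 (95% interval -0.15 to 0.38, adjusted p = 0.703). Lyve1, the endothelial member, gave 0.10 (95% interval -0.71 to 0.91, adjusted p = 0.927) and read 98.1 ± 28.4 in WT vehicle, 149 ± 59.4 in WT with atorvastatin, 165 ± 40.9 in PXRKO vehicle and 264 ± 78.8 in PXRKO with atorvastatin (SD, n = 4). Interferon and cell cycle lists, and those of Kupffer, stellate, cholangiocyte, lymphocyte, neutrophil and erythroid markers, held 0 members.

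Other annotated calls outside the naming rule, besides C4b, were chosen after their values were seen. The N-acetyltransferase gene Nat8f1 gave -0.72 (95% interval -1.14 to -0.30, adjusted p = 0.0268) and the lysosomal protease Ctsc gave -0.82 (95% interval -1.34 to -0.31, adjusted p = 0.0348). Zc3h8, a zinc finger gene, gave -1.32 (95% interval -1.95 to -0.69, adjusted p = 0.00971), and the mitochondrial ribosomal protein gene Mrpl27 gave -0.44 (95% interval -0.73 to -0.15, adjusted p = 0.046). The Nat8f1 call was lost without WT vehicle library 4, WT atorvastatin library 3, PXRKO vehicle library 3, or PXRKO atorvastatin library 4 (-0.90 to -0.60 over all 16), and with the members' own dispersion trend (adjusted p = 0.0533). The Ctsc call was lost without WT vehicle libraries 2 or 4, WT atorvastatin libraries 3 or 4, PXRKO vehicle libraries 1 or 4, or PXRKO atorvastatin libraries 2, 3 or 4 (-0.96 to -0.66), and with the members' own dispersion trend (adjusted p = 0.0641) and with limma-voom (adjusted p = 0.0676). The Mrpl27 call was lost without WT vehicle libraries 1, 2, 3 or 4, WT atorvastatin libraries 2, 3 or 4, PXRKO vehicle libraries 1, 2 or 3, or PXRKO atorvastatin libraries 2, 3 or 4 (-0.51 to -0.36), and with the members' own dispersion trend (adjusted p = 0.101), with limma-voom (adjusted p = 0.0741) and with TMM (adjusted p = 0.0971). Col6a6, a collagen chain at 4.48 to 16.6 counts in WT vehicle, gave -2.26 (95% interval -3.46 to -1.07, adjusted p = 0.017). A pair of predicted models 0.3 kb apart on chromosome 1 were called as well, both with a lower response in PXRKO.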

How the data were processed

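The series holds 24 liver RNA-seq libraries in 6 groups, and 16 libraries of 4 groups enter the interaction. Per the submitters' processing notes reads were counted with HTSeq and tested with DESeq2 on build GRCm38; neither the notes nor the headers name versions, an aligner or an annotation release. The deposited values used as counts are whole-number reads per gene, not normalised, per the file headers. The deposited mean signal (baseMean) is the authors' mean of counts divided by size factors. The authors' adjusted p-values, as deposited, served only to describe which genes a table lists. The workbook has 15 tables, of which 10 were used. The 80 per-sample columns used were mapped by the order of groups in table titles and by equal counts between tables. Library numbers are column order.

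Counts were joined by gene symbol and coordinates (0 library and gene pairs with unequal counts between tables). An untitled table, needed by 144 members, was taken as PXRKO vehicle against atorvastatin. This is because its columns hold the same counts as titled columns of those groups. Its 539 genes have deposited adjusted p from 0.0103 to 0.987, and its rule of listing is not stated. At 0.05 the authors' tables list 12 genes for atorvastatin in PXRKO and 1333 in WT. No library was a copy of another. Size factors were solved by least squares so that each table's counts give its baseMean (largest residual 0.0479%) and chained through shared libraries; 2 routes to PXRKO atorvastatin differed by 0.212%. Levels are thus set across separately normalised tables.

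edgeR 4.0.16 (quasi-likelihood F test, 4 groups, no covariate, 12 residual and 5.84 prior degrees of freedom) was run on the members in R 4.3.3, with the dispersion trend and prior learned on 12958 genes of the WT vehicle and PCN table. That trend comes from WT libraries only. Significance is a Benjamini-Hochberg adjusted p of 0.05 over the 357 members, and intervals are at 95%. The steps were tested on simulated data. DESeq2 1.42.0 and limma 3.58.1 served as alternatives. Python 3.11.15, numpy, pandas and matplotlib made joins and figures. Each library is a separate animal per the labels.

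Members and lists were chosen with earlier results of these data known. Named genes are Nr1i2, the called genes with a mean of at least 50 counts (up to 14 with the largest difference each way), and up to 4 members per list of lowest p; others are said to be chosen after their values were seen. Predicted gene models were counted and mostly not named, and a few genes that entered the test are not reported here.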

Additional observations from a re-analysis of the deposited data

Results flagged for a closer look

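Of 288 groups of 4 libraries looked at (72 genes, 4 groups each), 24 (8.33%) held a library set apart by Dixon's test at 95%, where chance sets apart about 1 group in 20. All values are normalised counts of that library. In PXRKO atorvastatin the lowest library stood apart for Nr1i2 (398). In WT vehicle the highest library stood apart for Gjc3 (87.4), Serpine2 (458), Oat (16432), Cyp2c55 (47.8), Ttr (59304), Lyve1 (140), Hspa5 (11572), Hyou1 (4616.6) and 3930402G23Rik (20.3). In PXRKO vehicle the highest library stood apart for Nav2 (3017.6), Orm1 (5196.7) and Cyp2c55 (229). In WT atorvastatin the highest library stood apart for Gas6 (667), Gadd45b (24.3), Mup1 (610) and Saa4 (3722.7). In PXRKO atorvastatin the highest library stood apart for Gas6 (383), Serpina3n (5671.3), Elovl2 (20867), Cyp4a31 (496), Hspa5 (8783.9), 3930402G23Rik (117) and Fdps (164). For Orm1 this was PXRKO vehicle library 1, and for Hspa5 and Hyou1 it was WT vehicle library 3.

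The response to atorvastatin differed between the genotypes, by the interaction test, for 32 genes named in the text, given here with their log2 difference. It was higher in PXRKO for Gm45301 (6.52), 3930402G23Rik (3.88), Acmsd (2.02), Asic5 (1.40), Gjc3 (1.39), Serpine2 (1.25), Arsg (1.08), Fyb2 (1.00), Nav2 (0.94), Tln2 (0.81), Oat (0.61), Psen2 (0.57) and Tdo2 (0.56). It was lower in PXRKO for Orm2 (-3.66), Col6a6 (-2.26), Tnxb (-1.37), Itih4 (-1.36), Zc3h8 (-1.32), Tspan4 (-1.31), Isyna1 (-1.30), Slc25a25 (-1.25), Orm1 (-1.18), Gas6 (-1.16), Slc10a2 (-1.14), Fosl2 (-1.10), Serpina3n (-0.96), Insig1 (-0.90), C4b (-0.88), Ctsc (-0.82), Nat8f1 (-0.72), Per1 (-0.60) and Mrpl27 (-0.44). Experiment and genotype coincide in each of these.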

How the results depend on the processing

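The count of 41 called interactions was 28 with the dispersion trend and prior estimated on the members, 44 with DESeq2, 29 with limma-voom, 45 with TMM and 40 at a mean of at least 10 counts, and 28, 41, 29, 40 and 40 of these were among the 41. Adjusted over 12958 genes it was 1, with the tables listed at 0.05 alone 8 of 166 members, and for members that do not need the untitled table it was 16 of 213, an alternative chosen after seeing the data. The last 2 test fewer genes. Leaving out 1 library at a time gave 30 (without WT atorvastatin library 3) to 45. The 164 members called for atorvastatin in WT became 24, 49 and 65 under those 3 settings, and 136 to 172 without 1 library. The 108 called in PXRKO became 0, 9 and 11 under the same settings. They were 0 with the members' own trend and with limma-voom, where 157 and 153 had an unadjusted p under 0.05, and 114 with DESeq2, and 0 to 125 without 1 library; the cause was not tested. TMM moved the interaction of all members by a median of 0.0568. Signs turned only for genes not called. With TMM Slco1b2 was 0.0342 and Pdia6 was 0.0401. Without 1 library at a time the sign turned for 14 genes, whose differences ran over Elovl2 -0.159 to 0.196, Cpt1a -0.129 to 0.00436, Angptl4 -0.0614 to 0.331, Sdf2l1 -0.0605 to 0.424, Slco1b2 -0.139 to 0.0702, Cyp4f14 -0.028 to 0.115, Mup21 -0.109 to 0.406, Apoc3 -0.0409 to 0.0603, Lyve1 -0.154 to 0.42, Hspa5 -0.0244 to 0.241, Pdia6 -0.188 to 0.0729, Hyou1 -0.0244 to 0.26, Crp -0.0558 to 0.0819 and Fdps -1.04 to 0.0152. No paired analysis was possible because the columns carry no replicate numbers shared between groups. Depth limits precision at low counts.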
